A study of Mus musculus with 48 samples.

Results

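The comparison described here asks, at 7 months of age, whether the BACHD-ΔN17 genotype changed striatum and cortex of the same mouse by different amounts. Its values come from 16 of the 48 arrays, a striatal and a cortical array from each of 8 of the 24 mice. The arrays are paired through the mouse name that the labels give to both samples. Mice of the other ages shared the normalization and the estimate of the spread between mice. The 4 BACHD-ΔN17 mice carried a BACHD-ΔN17 transgene, a bacterial artificial chromosome with mutant human huntingtin whose first segment, N17, is deleted. The 4 wild-type mice were the controls. All were FvB/NJ mice, and each genotype had 2 males and 2 females. In BACHD mice the human gene keeps its own regulatory sequences, so the transgene is not limited to neurons, and the sources used here do not say whether these mice came from 1 founder line. Mice are numbered 1 to 4 within a genotype, and a number is only a name.

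Huntington's disease affects the striatum first and most severely, and the projection neurons of the striatum more than its interneurons. These neurons use GABA, receive glutamatergic input from cortex and dopaminergic input from midbrain, and fall into a direct pathway, marked by the dopamine receptor gene Drd1, and an indirect pathway, marked by Drd2. In models of the disease their identity genes lose expression, and astrocytes and microglia can become reactive. Mutant huntingtin acts partly in the nucleus, and the N17 segment takes part in keeping the protein out of it. The title of the series names N17 as a modifier of this nuclear pathogenesis.

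Each array gave a bead intensity for 25697 probes, and 13058 to 14378 of them were detected per 7-month array. All levels below are normalized log2 intensities, on which the detection floor lay between 5.62 and 5.97. A mouse's within-mouse difference is its striatal minus its cortical level, and the genotype difference of it is BACHD-ΔN17 minus wild-type. A gene is called when its adjusted p from limma (Benjamini-Hochberg over 11573 tested features) was under 0.05, and an error after ± is the standard error from that fit unless SD is stated. The tissue labels were checked with 10 of 13 marker genes that could be tested. The mean of 6 striatal markers lay between 11.5 and 11.8 in the 4 BACHD-ΔN17 striata and between 12.4 and 12.5 in the 4 wild-type striata, and between 7.35 and 7.77 in the 8 cortices. The mean of 4 cortical markers lay between 10.8 and 11.1 in the 8 cortices, between 6.42 and 7.43 in BACHD-ΔN17 striata and between 7.13 and 8.14 in wild-type striata. Slc17a7, which encodes the glutamate transporter of cortical excitatory neurons, was at 6.69, 8.71, 6.79 and 6.92 in BACHD-ΔN17 striata and at 9.33, 10.09, 7.87 and 7.95 in wild-type striata. Cortical transcripts were thus highest in the striata of wild-type mice 1 and 2 and of BACHD-ΔN17 mouse 2, and counts are also given without these 3 mice. The striatal array of wild-type mouse 1 had the fewest probes detected of the 16, 13058, and the lowest median intensity. The mouse Htt probe differed between genotypes by 0.11 in striatum and by 0.21 in cortex, neither called (adjusted p = 0.817 and 0.914, limma). Whether it also reads the human transgene was not tested.

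At 7 months the genotype difference was not the same in striatum and cortex for 221 of 11573 features (1.91%). The within-mouse difference was higher in BACHD-ΔN17 than in wild-type mice for 96 of them (0.83%) and lower for 125 (1.08%). These shares over all features are the background for each list count below. Among named genes the 4 largest increases were those of Ccl4, Lyz2, Gfap and Ch25h, genes of microglia and astrocytes that were called in striatum and not in cortex. Among the same named genes the 3 largest decreases were those of En2, Pou4f1 and Twist1, developmental transcription factors that rose in cortex, also with undetected groups raised to the detection floor. The within-mouse differences of the 2 groups did not overlap for 204 of the 221 called features, against 885 of all 11573 (7.65%), and 108 of the 221 differed by at least 1 on the log2 scale. Unadjusted p was under 0.05 for 1321 features. The count was 109 without the 3 mice whose striata held most Slc17a7. This leaves BACHD-ΔN17 mice 1, 3 and 4 and wild-type mice 3 and 4. Whether calls lost there go with Slc17a7 or with fewer mice was not tested. The count was 97 without BACHD-ΔN17 mouse 3. It was 29 with only the mice whose arrays both had internal sample numbers up to 32, which leaves 3 BACHD-ΔN17 mice and 1 wild-type mouse, with that mouse assumed to vary like the others. The last choice and the one on Slc17a7 were made after the data were seen. The tissue is bulk RNA, so fewer cells of a type and less RNA per cell cannot be told apart in any of these values.

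**Figure D1:**
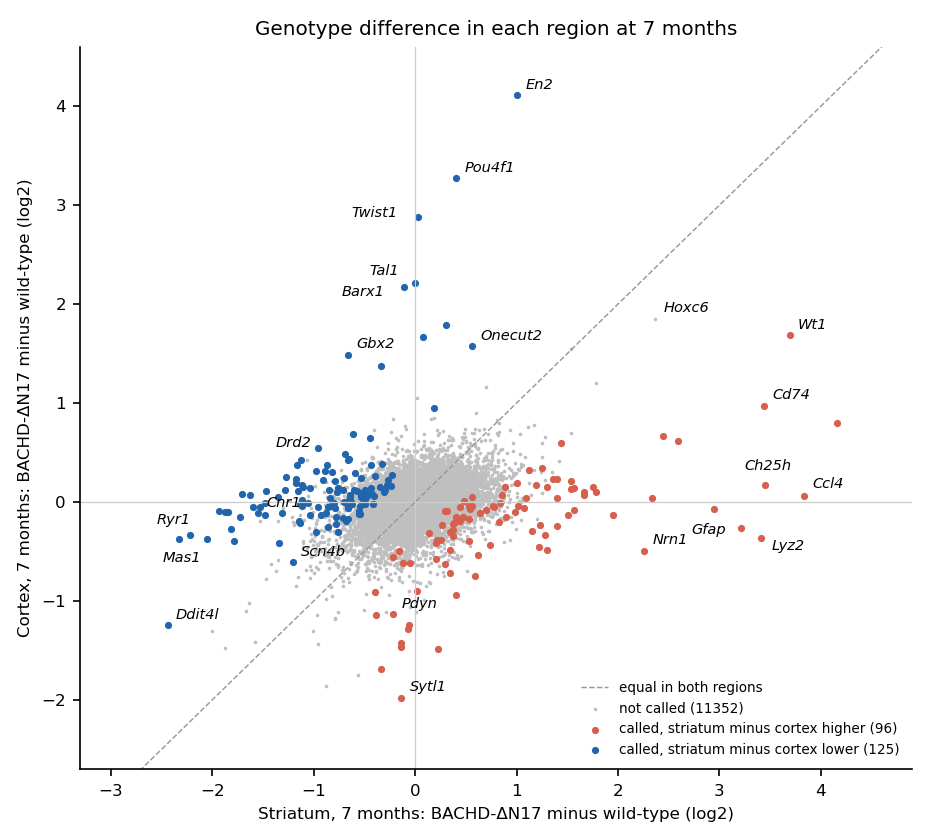
Log2 difference, BACHD-ΔN17 minus wild-type at 7 months, in striatum (horizontal) against cortex (vertical) for 11573 features, 4 mice per genotype. The 96 called higher (red) lie below the dashed line of equal change and the 125 called lower (blue) above it. En2, Pou4f1 and Twist1 stand out through cortex, and Ccl4, Lyz2 and Gfap through striatum.

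The region that carried each difference was read from separate fits of the 2 regions, which subtract exactly to the difference between them. In striatum alone 1383 features were called between genotypes (12%), 576 higher and 807 lower in BACHD-ΔN17 mice. In cortex 190 were called (1.64%), 54 higher and 136 lower. Of the 96 features with a higher within-mouse difference, 63 were called in striatum and not in cortex, 15 in cortex and not in striatum, 13 in neither region, 3 in both with the same sign and 2 in both with opposite signs. Of the 125 with a lower one, 104 were called in striatum and not in cortex, 8 in cortex and not in striatum, 7 in neither, 4 in both with the same sign and 2 in both with opposite signs. A call in 1 region and not in the other is no test of a difference between them, and the test between regions is the within-mouse one. The median over all features was -0.002 for the within-mouse difference, 0.01 in striatum and 0.01 in cortex.

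Of 32 activated microglia genes on the array 23 passed the detection filter, some of them detected at 7 months in BACHD-ΔN17 striata alone. The filter thus favoured members that are high there, and nothing is read from the counts and medians of this list. Of these 23, 10 rose in striatum relative to cortex and none fell, against 0.83% and 1.08% of all features. The list's median genotype difference was 1.05, against -0.002 over all features. With groups below detection raised to the floor the median was 0.70. Within striatum 17 of the 23 rose and 1 fell, against 576 and 807 of all 11573 features. Within cortex none of the 23 was called. Their mean level lay between 8.94 and 9.56 in BACHD-ΔN17 striata, against 7.65 to 7.76 in wild-type striata, and between 7.26 and 7.88 in BACHD-ΔN17 cortices, against 7.25 to 7.69 in wild-type cortices. The count was 4 with only the mice of internal sample numbers up to 32.

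Ccl4 encodes a chemokine that microglia release when activated. In the striata of the 4 BACHD-ΔN17 mice it was at 9.50, 9.11, 9.64 and 9.00, and it was below detection in wild-type striata and in all 8 cortices. Every BACHD-ΔN17 striatum was far above the floor, which makes the level at least 10.9-fold higher than in wild-type striata. The within-mouse difference was higher by 3.78 ± 0.35 in BACHD-ΔN17 mice (adjusted p = 4.65e-08, limma), and a weaker second probe also gave a called difference, 1.27. Ccl3, a chemokine gene next to it in the same cluster, was at 7.73, 7.58, 7.61 and 7.17 in BACHD-ΔN17 striata and not detected in the other 12 samples. That is at least 3.15-fold above wild-type striata, and the within-mouse difference was 2.30 ± 0.28 higher (adjusted p = 5.87e-06, limma). With undetected groups at the floor it was 1.65 higher.

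Lyz2 encodes lysozyme, an antibacterial enzyme of macrophages and microglia. It was at 10.17, 10.20, 11.47 and 10.96 in BACHD-ΔN17 striata and at 7.54, 6.96, 7.32 and 7.32 in wild-type striata. In cortex it was at 7.56, 6.91, 7.88 and 7.22 in BACHD-ΔN17 mice and at 7.88, 8.26, 7.00 and 7.88 in wild-type mice. The striatal groups were far apart and the cortical groups overlapped. Lyz2 was 10.7-fold higher in BACHD-ΔN17 striata, and the difference between regions was 3.78 ± 0.43 (adjusted p = 2.17e-06, limma). Lyz1, its close paralog, differed between regions by 3.03 ± 0.25 (adjusted p = 5.30e-09), and probes for such similar genes may share signal.

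Ch25h makes 25-hydroxycholesterol, an oxysterol that macrophages release in inflammation. It was at 9.40, 9.09, 9.73 and 9.02 in BACHD-ΔN17 striata and at 5.59, 6.61, 5.38 and 5.86 in wild-type striata, 2 of which were detected. All 8 cortices lay between 5.6 and 6.52, so the genotypes separated in striatum and not in cortex. For Ch25h the regions differed by 3.28 ± 0.33 (adjusted p = 1.57e-07, limma).

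Lgals3, the galectin of phagocytic cells, was at 8.90, 8.91, 10.03 and 9.35 in BACHD-ΔN17 striata and at 6.32, 7.22, 7.10 and 6.79 in wild-type striata. For Lgals3 the regions differed by 1.77 ± 0.29 (adjusted p = 0.000381, limma). Ctse, an endosomal protease of microglia and other immune cells, was detected in the 4 BACHD-ΔN17 striata alone, at 6.65, 6.42, 7.75 and 7.16, at least 2.18-fold above wild-type striata. The fitted difference between regions was 2.09 ± 0.25 (adjusted p = 5.21e-06), and 1.12 with undetected groups at the floor.

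The antigen-presentation genes behaved less evenly. Cd74, the invariant chain of MHC class II, was at 10.14, 9.63, 10.87 and 8.68 in BACHD-ΔN17 striata and at 6.95, 5.65, 6.39 and 6.55 in wild-type striata. In cortex it was at 9.96, 6.71, 7.09 and 6.11 in BACHD-ΔN17 mice and at 6.37, 7.44, 5.67 and 6.49 in wild-type mice. BACHD-ΔN17 mouse 1 was high in both regions. Its within-mouse difference, 0.17, lay among the wild-type values of 0.59, -1.79, 0.72 and 0.07, whereas the other three BACHD-ΔN17 mice were at 2.92, 3.78 and 2.57. For Cd74 this gave a difference between regions of 2.47 ± 0.54 (adjusted p = 0.0107, limma), and 3.05 by a second probe. The call was lost under 6 of 26 alternatives, among them those that left out BACHD-ΔN17 mouse 3, BACHD-ΔN17 mouse 4, wild-type mouse 2, or the 3 mice with most Slc17a7. H2-Ab1, a class II chain, had the same high cortex in BACHD-ΔN17 mouse 1, at 9.10, and a difference between regions of 1.98 ± 0.53 (adjusted p = 0.0468), a call lost under 16 of 26 alternatives. Of the 4 H2-Ab1 probes, 2 gave no call.

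Of 19 homeostatic microglia genes 3 rose in striatum relative to cortex and none fell (median 0.20), against 0.83% and 1.08% of all features. Trem2 and Tyrobp, a microglial receptor and its signalling adaptor, had differences between regions of 0.83 ± 0.20 (adjusted p = 0.0226) and 1.05 ± 0.21 (adjusted p = 0.0054, limma). Laptm5, a lysosomal membrane protein of immune cells, was the third, with 0.49 ± 0.13 (adjusted p = 0.0438). The call was lost under 8 of 26 alternatives for Trem2 and under 15 for Laptm5. 1 of the 19 was called when the 3 mice with most Slc17a7 were left out, and likewise when BACHD-ΔN17 mouse 2, BACHD-ΔN17 mouse 3 or wild-type mouse 3 was. With only the internal sample numbers up to 32, none was called (limma). In the list of interferon response and MHC class I genes, 1 of 24 was called. It was B2m, the light chain of MHC class I, which was higher by 0.84 ± 0.12 (adjusted p = 8.55e-05).

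Cdkn1c, an inhibitor of the cell cycle that belongs to none of these lists, was also among the largest increases. It was at 9.80, 9.58, 9.99 and 9.86 in BACHD-ΔN17 striata and at 8.83, 8.28, 8.34 and 8.58 in wild-type striata, with overlapping cortical levels. Its difference between regions was 1.79 ± 0.22 (adjusted p = 4.51e-06, limma), and it kept its call under every alternative run.

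**Figure D2:**
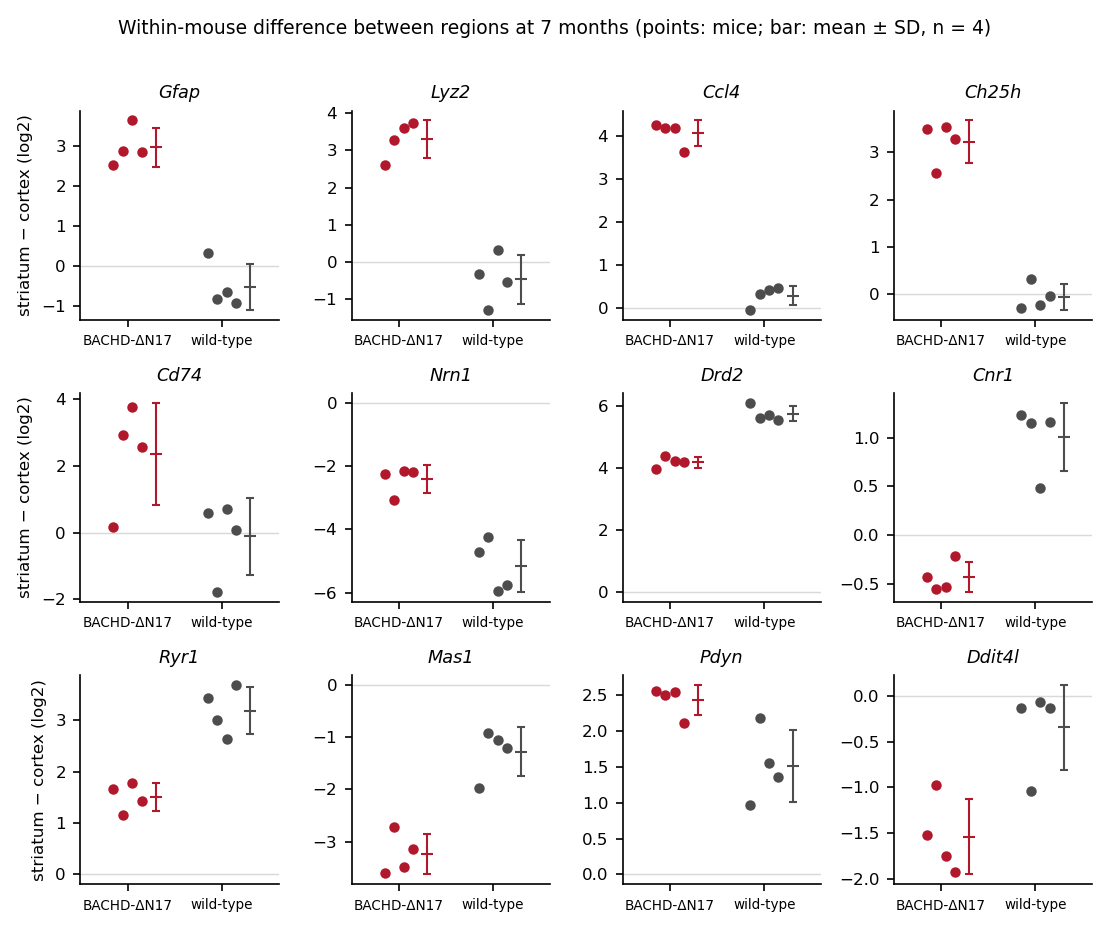
Within-mouse striatum minus cortex difference of normalized log2 intensity at 7 months for 12 genes, BACHD-ΔN17 left and wild-type right, with a point per mouse and the mean ± SD (n = 4). Gfap, Lyz2, Ccl4 and Ch25h separate completely. Cd74 overlaps through BACHD-ΔN17 mouse 1 at 0.17, Pdyn through BACHD-ΔN17 mouse 4 at 2.11, and Ddit4l through wild-type mouse 2 at -1.04.

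Of 27 reactive astrocyte genes on the array 18 passed the detection filter, and 6 of these rose in striatum relative to cortex and none fell. Over all features 0.83% rose and 1.08% fell. At 7 months Timp1 and Aspg were detected in all 4 BACHD-ΔN17 striata and in no wild-type striatum. The filter thus favoured members that are high there, and nothing is read from the counts and medians of this list. The list's median was 0.58, against -0.002 over all features, and 0.49 with undetected groups at the floor. Gfap, the intermediate filament of reactive astrocytes, was at 10.57, 10.43, 11.45 and 10.71 in BACHD-ΔN17 striata and at 8.27, 7.4, 7.35 and 7.28 in wild-type striata. In cortex the genotypes overlapped, at 8.06, 7.57, 7.81 and 7.87 in BACHD-ΔN17 mice and at 7.93, 8.22, 7.99 and 8.21 in wild-type mice. Gfap was 9.28-fold higher in BACHD-ΔN17 striata, and the difference between regions was 3.48 ± 0.34 (adjusted p = 1.03e-07, limma). The highest wild-type striatum was that of mouse 1, on the dim array.

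C4b, a complement component that reactive astrocytes make, was at 9.93, 10.28, 11.14 and 9.93 in BACHD-ΔN17 striata and at 8.59, 8.40, 9.07 and 9.10 in wild-type striata. Its difference between regions was 1.32 ± 0.28 (adjusted p = 0.0082), and the within-mouse values overlapped, since BACHD-ΔN17 mouse 1 at 1.5 lay below wild-type mouse 4 at 1.53. Serpina3n, a secreted protease inhibitor, differed by 0.80 ± 0.17 (adjusted p = 0.00909) and S100a6, a calcium-binding protein, by 1.06 ± 0.16 (adjusted p = 8.51e-05, limma). Timp1, an inhibitor of matrix proteases, had a fitted difference of 1.62 ± 0.34, but 0.20 with undetected groups at the floor, and a second probe was not called. The sixth was Aspg, with 1.42 ± 0.33, but 0.54 with undetected groups at the floor, and its call was lost under 6 of 25 alternatives. When the 3 mice with most Slc17a7 were left out, or BACHD-ΔN17 mouse 3 alone, 3 of the 18 were called, and 2 with internal sample numbers up to 32. Of 23 homeostatic astrocyte genes 1 was called, the water channel Aqp4, by 0.58 ± 0.15 (adjusted p = 0.0455), and its call was lost under 16 of 26 alternatives.

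Genes of striatal projection neurons moved the other way. Of 40 tested list members 12 were lower and 2 higher in the within-mouse difference, against 1.08% and 0.83% of all features. The median was -0.56, against -0.002 over all features. Within striatum 30 of the 40 fell and none rose, against 807 and 576 of all 11573 features. Within cortex 7 of the 40 fell, against 136 of all features. The list was drawn up with earlier results of these mice known. The mean level of its members lay between 10.8 and 11.0 in BACHD-ΔN17 striata, against 11.4 to 11.6 in wild-type striata. When the 3 mice with most Slc17a7 were left out, or BACHD-ΔN17 mouse 3 or mouse 4 alone, 7 of the 40 were lower, and 1 with internal sample numbers up to 32.

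All 3 called genes of the 8 on the indirect pathway list were lower, against 1.08% lower over all features. Drd2, the dopamine receptor of indirect pathway neurons, was at 10.51, 10.67, 9.91 and 10.44 in BACHD-ΔN17 striata and at 11.32, 11.55, 11.55 and 11.62 in wild-type striata. The groups did not overlap in striatum, and in cortex Drd2 lay near the floor, between 5.22 and 6.56. Between regions Drd2 differed by -1.56 ± 0.21 (adjusted p = 2.09e-05, limma). Gpr6, an orphan receptor of the same neurons, was at 8.91, 9.15, 8.61 and 9.14 in BACHD-ΔN17 striata and at 9.98, 9.83, 9.92 and 10.22 in wild-type striata. It differed between regions by -1.18 ± 0.26 (adjusted p = 0.0106). Upb1, an enzyme of pyrimidine breakdown, differed by -1.79 ± 0.29 (adjusted p = 0.000319).

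On the direct pathway list, 2 of 9 genes were lower and 1 was higher, with a median of -0.45, or -0.04 with undetected groups at the floor. Drd1, the dopamine receptor of direct pathway neurons, was at 12.52, 12.54, 12.42 and 12.58 in BACHD-ΔN17 striata and at 13.24, 13.17, 13.22 and 13.23 in wild-type striata. These groups were also apart. For Drd1 the regions differed by -0.94 ± 0.16 (adjusted p = 0.000562, limma), a call lost without the 3 mice with most Slc17a7. Sfxn1, a mitochondrial serine transporter, differed by -0.45 ± 0.12 (adjusted p = 0.0423), a call lost under 18 of 26 alternatives.

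Pdyn, the precursor of the opioid dynorphins of direct pathway neurons, was the gene of this list that was higher. Its striatal levels overlapped, at 12.89, 13.20, 13.31 and 13.15 in BACHD-ΔN17 mice and at 12.77, 13.60, 13.53 and 13.52 in wild-type mice. Its cortical levels did not, at 10.33, 10.71, 10.76 and 11.04 in BACHD-ΔN17 mice and at 11.79, 11.42, 11.99 and 12.16 in wild-type mice. Pdyn fell by 1.13 in cortex (adjusted p = 3.23e-05), and the higher within-mouse difference of 0.91 ± 0.17 (adjusted p = 0.00183, limma) came with that fall. A second Pdyn probe gave 1.04. The within-mouse differences of Pdyn overlapped, since BACHD-ΔN17 mouse 4 at 2.11 lay below wild-type mouse 2.

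Cnr1, the cannabinoid receptor on the terminals of striatal projection neurons, was at 7.01, 7.16, 6.75 and 7.16 in BACHD-ΔN17 striata and at 8.58, 8.70, 8.38 and 8.62 in wild-type striata. Its cortical levels overlapped, from 7.27 to 7.71 in BACHD-ΔN17 mice and from 7.34 to 7.89 in wild-type mice. All 4 BACHD-ΔN17 mice had less Cnr1 in striatum than in cortex, and all 4 wild-type mice had more. For Cnr1 the regions differed by -1.44 ± 0.27 (adjusted p = 0.00183, limma), and the second probe gave -1.46. The Cnr1 call was lost without the 3 mice with most Slc17a7.

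Rxrg, a retinoid receptor of striatal neurons, differed between regions by -1.5 ± 0.25 (adjusted p = 0.000457), and by -1.14 with undetected groups at the floor. Actn2, an actin-binding protein of the postsynaptic density, differed by -1.36 ± 0.18 (adjusted p = 1.20e-05, limma), with 10.88, 10.97, 10.33 and 10.93 in BACHD-ΔN17 striata and 11.79, 11.90, 11.93 and 12.17 in wild-type striata. Syndig1l, a synaptic membrane protein, differed by -1.30 ± 0.23 and Sez6, a regulator of dendrites and synapses, by -1.09 ± 0.21. The Sez6 call was lost without the 3 mice with most Slc17a7. Rgs9, which shortens dopamine receptor signalling, was at 13.92, 13.86, 13.70 and 13.73 in BACHD-ΔN17 striata and at 14.39, 14.42, 14.50 and 14.46 in wild-type striata. It differed between regions by -0.71 ± 0.17 (adjusted p = 0.0194), a call lost under 10 of 26 alternatives.

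Some identity genes fell in both regions. Scn4b, a sodium channel subunit enriched in striatal neurons, was at 13.12, 13.21, 12.74 and 13.08 in BACHD-ΔN17 striata and at 14.37, 14.33, 14.06 and 14.21 in wild-type striata. In cortex it was at 11.21, 11.48, 11.56 and 11.27 in BACHD-ΔN17 mice and at 12.25, 12.02, 11.80 and 11.88 in wild-type mice. It fell by 1.20 in striatum and by 0.61 in cortex, and the difference between regions was -0.60 ± 0.15 (adjusted p = 0.0304, limma), a call lost under 11 of 26 alternatives. Ddit4l, an inhibitor of the mTOR growth pathway, fell by 2.44 in striatum and by 1.24 in cortex. The difference was -1.20 ± 0.25 (adjusted p = 0.00625), with wild-type mouse 2 at -1.04 inside the BACHD-ΔN17 range because its cortical level, 12.16, was the highest of the 8.

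For other identity genes no difference between regions passed the test. Ppp1r1b, which encodes the dopamine-regulated phosphatase inhibitor DARPP-32, was at 14.28, 14.36, 14.23 and 14.31 in BACHD-ΔN17 striata and at 14.85, 14.80, 14.62 and 14.74 in wild-type striata. In cortex it was at 10.34, 10.56, 10.41 and 10.64 in BACHD-ΔN17 mice and at 11.29, 11.03, 11.10 and 11.31 in wild-type mice. It fell by 0.46 in striatum and by 0.69 in cortex, and the difference between regions was 0.24 ± 0.11 (adjusted p = 0.382, limma). Pde10a, the phosphodiesterase of striatal neurons, fell by 1.21 in striatum, with a difference between regions of -1.07 ± 0.30 (adjusted p = 0.0645). Its within-mouse values, 3.62, 3.41, 3.43 and 3.38 in BACHD-ΔN17 mice and 4.78, 4.47, 4.44 and 4.41 in wild-type mice, did not overlap at 7 months. Pde10a was called between regions under 8 of 26 alternatives. At 11 months its difference between regions was -1.84 ± 0.30 (adjusted p = 0.00018, limma).

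**Figure D3:**
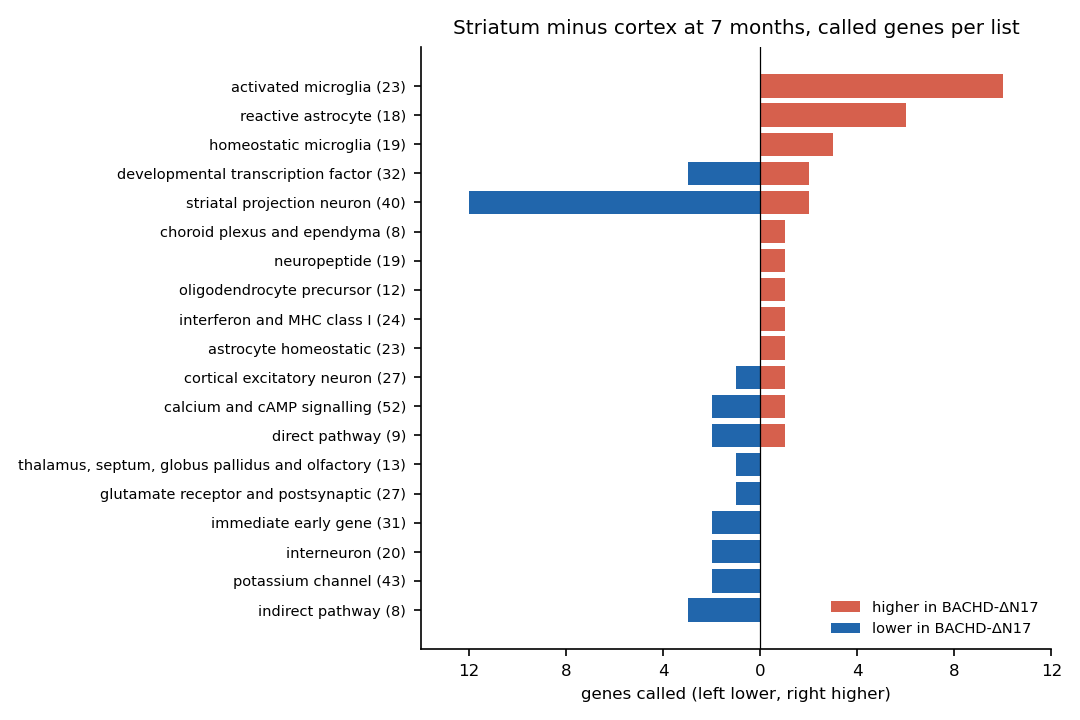
Number of genes called for the striatum minus cortex difference at 7 months in each gene list with a call, with the number of tested members in parentheses and BACHD-ΔN17 lower to the left, higher to the right. Activated microglia (10) and reactive astrocyte genes (6) lie to the right, and striatal projection neuron genes lie mostly to the left (12 lower, 2 higher). Nothing is read from the activated microglia and reactive astrocyte counts, since the detection filter favoured members high in BACHD-ΔN17 striata.

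Ion channel and signalling lists held 1 to 3 calls each. Over all features 1.91% were called. Of 52 calcium and cAMP signalling genes 2 were lower and 1 higher. Of 43 potassium channel genes 2 were lower, and of 27 glutamate receptor and postsynaptic genes 1 was lower. Within striatum 19 of the 52 fell and 2 rose, against 807 and 576 of all 11573 features. Of the 43 and of the 27, 11 each fell in striatum and none rose. Ryr1, the ryanodine receptor that releases calcium from internal stores, was at 7.38, 7.32, 7.41 and 7.02 in BACHD-ΔN17 striata and at 9.59, 9.72, 8.97 and 9.07 in wild-type striata. Its level in striatum was 0.241 times that of wild-type mice, and the difference between regions was -1.68 ± 0.31 (adjusted p = 0.00168, limma). Of its 3 other probes 1 gave a called difference, -1.64, and the others gave -0.90 and -0.05, so the probes disagree. The Ryr1 call was lost without the 3 mice with most Slc17a7. Pde1b, a calcium-activated phosphodiesterase, differed by -0.63 ± 0.11 (adjusted p = 0.000869), and Prkar1b, a regulatory subunit of protein kinase A, by 0.50 ± 0.13 (adjusted p = 0.0325), a call for Prkar1b that was lost under 14 of 26 alternatives.

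Kcnj4, an inward rectifier potassium channel, differed by -0.81 ± 0.15 (adjusted p = 0.00161), and Kcnd2, a channel of the A-type current, by -0.46 ± 0.12 (adjusted p = 0.0431), a call lost under 16 of 26 alternatives. Homer1, a scaffold of glutamate receptors, differed by -0.46 ± 0.12 (adjusted p = 0.0349), while its other 2 probes were not called. It was also 1 of the 2 lower genes among 31 immediate early genes. Jun, the transcription factor subunit, was the other, with -0.81 ± 0.20 (adjusted p = 0.0289, limma), although neither region alone was called. The call was lost under 12 of 26 alternatives for Homer1 and under 11 for Jun. Of 20 interneuron genes 2 were lower, Gbx2, described below, and Slc18a3, the vesicular acetylcholine transporter of cholinergic interneurons, with -1.07 ± 0.23 (adjusted p = 0.00864).

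Large striatal decreases were also found in genes outside these lists. Mas1, a receptor for an angiotensin peptide, was at 5.62, 6.39, 5.28 and 5.96 in BACHD-ΔN17 striata and at 7.19, 8.85, 8.34 and 8.17 in wild-type striata, with 8.76 to 9.77 in all cortices. Between regions Mas1 differed by -1.95 ± 0.27 (adjusted p = 3.69e-05, limma). Mas1 was higher in cortex than in striatum in every mouse, and the cortical marker means given above lay between 6.42 and 7.43 in BACHD-ΔN17 striata and between 7.13 and 8.14 in wild-type striata. Their part in the result was not tested. Cyp2a5, a cytochrome P450, was at 6.81, 6.42, 6.65 and 6.35 in BACHD-ΔN17 striata and at 8.38, 9.15, 8.86 and 8.70 in wild-type striata, and differed by -1.89 ± 0.27 (adjusted p = 5.35e-05). Il17rc, a subunit of the interleukin-17 receptor, differed by -1.84 ± 0.28 (adjusted p = 0.000125), and its 2 other probes gave -1.76 and -1.72.

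Wnt8b, a developmental signalling ligand, was not detected in BACHD-ΔN17 striata and was at 7.61, 7.31, 5.88 and 6.72 in wild-type striata. It was thus at least 2.27-fold lower in BACHD-ΔN17 striata, and the difference between regions was -1.77 ± 0.29 (adjusted p = 0.000486, limma). With undetected groups at the floor that difference was -1.19. Myo3b, an unconventional myosin, differed by -1.75 ± 0.28 (adjusted p = 0.00028). St8sia2, a polysialic acid synthase, was at 6.09, 6.28, 6.23 and 6.08 in BACHD-ΔN17 striata and at 6.43, 8.27, 8.19 and 8.30 in wild-type striata. The low wild-type value came from mouse 1, on the dim array, and the difference was -1.70 ± 0.35 (adjusted p = 0.00607).

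In cortex several transcription factors of embryonic patterning were detected in BACHD-ΔN17 mice and in few or no wild-type mice. Of 73 developmental transcription factors of the list on the array, 32 passed the detection filter, 3 of which were lower in the within-mouse difference and 2 higher. Within cortex 5 of the 32 rose and none fell, and within striatum 7 rose and none fell. Some members, such as Wt1, Irx5 and Hoxc6, were detected at 7 months in BACHD-ΔN17 mice alone, so the filter favoured members that are high there, and nothing is read from these counts. The list's median was -0.14, against -0.002 over all features. Further genes of this kind outside the list are named because they were among the 15 largest differences.

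En2, a homeobox factor of the midbrain and hindbrain, was at 9.55, 9.68, 10.05 and 9.65 in BACHD-ΔN17 cortices and at 5.57, 5.90, 5.23 and 5.77 in wild-type cortices, 1 of which was detected. In striatum it was at 8.00, 7.67, 8.04 and 7.94 in BACHD-ΔN17 mice and at 7.08, 6.98, 6.83 and 6.74 in wild-type mice. Both regions rose, cortex by 4.11 and striatum by 1.00. Every BACHD-ΔN17 mouse had more En2 in cortex than in striatum, and every wild-type mouse had less. Between regions En2 differed by -3.11 ± 0.26 (adjusted p = 5.30e-09, limma).

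Pou4f1, a POU homeobox factor of sensory neurons, was at 8.16, 8.22, 8.70 and 8.04 in BACHD-ΔN17 cortices and was not detected in wild-type cortices or in any striatum. It was at least 5.67-fold higher in BACHD-ΔN17 cortices, and the difference between regions was -2.88 ± 0.24 (adjusted p = 5.30e-09, limma), or -2.67 with undetected groups at the floor. Barx1, a homeobox factor of teeth and stomach, had the same pattern, with 7.22, 6.96, 7.46 and 7.21 in BACHD-ΔN17 cortices and no detection elsewhere. That is at least 2.71-fold above wild-type cortices. Between regions Barx1 differed by -2.28 ± 0.27 (adjusted p = 4.27e-06), its second probe gave -1.83, and the value was -1.61 with undetected groups at the floor.

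Tal1, a factor of blood formation and of some neurons, was at 7.38, 6.81, 7.47 and 7.66 in BACHD-ΔN17 cortices and not detected in the other 12 samples, which makes it at least 2.94-fold higher. Its difference between regions was -2.21 ± 0.28 (adjusted p = 1.14e-05, limma), or -1.73 with undetected groups at the floor. Twist1, a factor of mesoderm and neural crest, was at 8.78, 8.18, 9.03 and 8.76 in BACHD-ΔN17 cortices and at 5.29, 5.80, 6.54 and 5.59 in wild-type cortices. The cortical groups were far apart, while all 8 striata lay near the floor, between 5.6 and 6.48. Between regions Twist1 differed by -2.85 ± 0.34 (adjusted p = 3.74e-06).

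Hoxb5, a homeobox factor of hindbrain and spinal cord, was at 7.69, 6.85, 7.66 and 7.07 in BACHD-ΔN17 cortices and not detected in wild-type cortices, at least 2.91-fold higher. The difference between regions was -1.48 ± 0.37 (adjusted p = 0.0304, limma), or -1.23 with undetected groups at the floor. The Hoxb5 call was lost under 11 of 25 alternatives. Onecut2, a factor of neuronal differentiation, rose in both regions. It was at 10.30, 10.33, 10.16 and 10.39 in BACHD-ΔN17 cortices and at 8.66, 8.41, 8.93 and 8.89 in wild-type cortices, and at 11.60, 11.38, 11.54 and 11.78 in BACHD-ΔN17 striata and 10.88, 11.25, 10.78 and 11.14 in wild-type striata. It rose by 1.57 in cortex and by 0.56 in striatum, and the difference was -1.01 ± 0.17 (adjusted p = 0.000833, limma). The Onecut2 call was lost without the 3 mice with most Slc17a7.

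Gbx2, a homeobox factor of thalamus and of some striatal interneurons, went in opposite directions. It was at 7.39, 7.4, 7.24 and 7.52 in BACHD-ΔN17 striata and at 8.35, 7.74, 7.93 and 8.18 in wild-type striata, and at 7.24, 6.11, 7.04 and 6.70 in BACHD-ΔN17 cortices with no detection in wild-type cortices. It fell by 0.66 in striatum (adjusted p = 0.00897) and rose by 1.49 in cortex (adjusted p = 0.000185), where it was at least 2.0-fold higher. For Gbx2 the regions differed by -2.15 ± 0.27 (adjusted p = 6.28e-06, limma), or by -1.66 with undetected groups at the floor. Gbx2 was also the 1 called gene of 13 on a list of thalamus, septum, pallidum and olfactory markers, whose mean level in cortex was 7.65 to 7.72 in BACHD-ΔN17 mice and 7.49 to 7.69 in wild-type mice. Cdhr1, a cadherin of photoreceptors and olfactory bulb, and Hspb3, a small heat shock protein of muscle, also rose in cortex, by 1.37 and 1.66.

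Other factors had other patterns. Wt1, a zinc finger factor of kidney and gonad development, was at 8.94, 8.31, 8.80 and 8.59 in BACHD-ΔN17 striata, at 6.87, 6.90, 6.78 and 7.10 in BACHD-ΔN17 cortices, and not detected in any wild-type sample. It was at least 6.94-fold higher in BACHD-ΔN17 than in wild-type striata and at least 2.20-fold higher in cortex. For Wt1 the regions differed by 2.01 ± 0.26 (adjusted p = 1.20e-05, limma), or by 1.66 with undetected groups at the floor. Irx5, an Iroquois homeobox factor, was detected in the 4 BACHD-ΔN17 striata alone, at least 1.36-fold above wild-type striata. Its fitted difference of 1.15 ± 0.30 (adjusted p = 0.0404) was 0.44 with undetected groups at the floor, and its call was lost under 13 of 25 alternatives. Hoxc6, a homeobox factor of the trunk, was at 7.79, 6.96, 7.09 and 7.66 in BACHD-ΔN17 striata and at 6.85, 6.47, 7.04 and 7.07 in BACHD-ΔN17 cortices, and not detected in wild-type mice. It was not called between regions, with 0.51 ± 0.27 (adjusted p = 0.473).

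**Figure D4:**
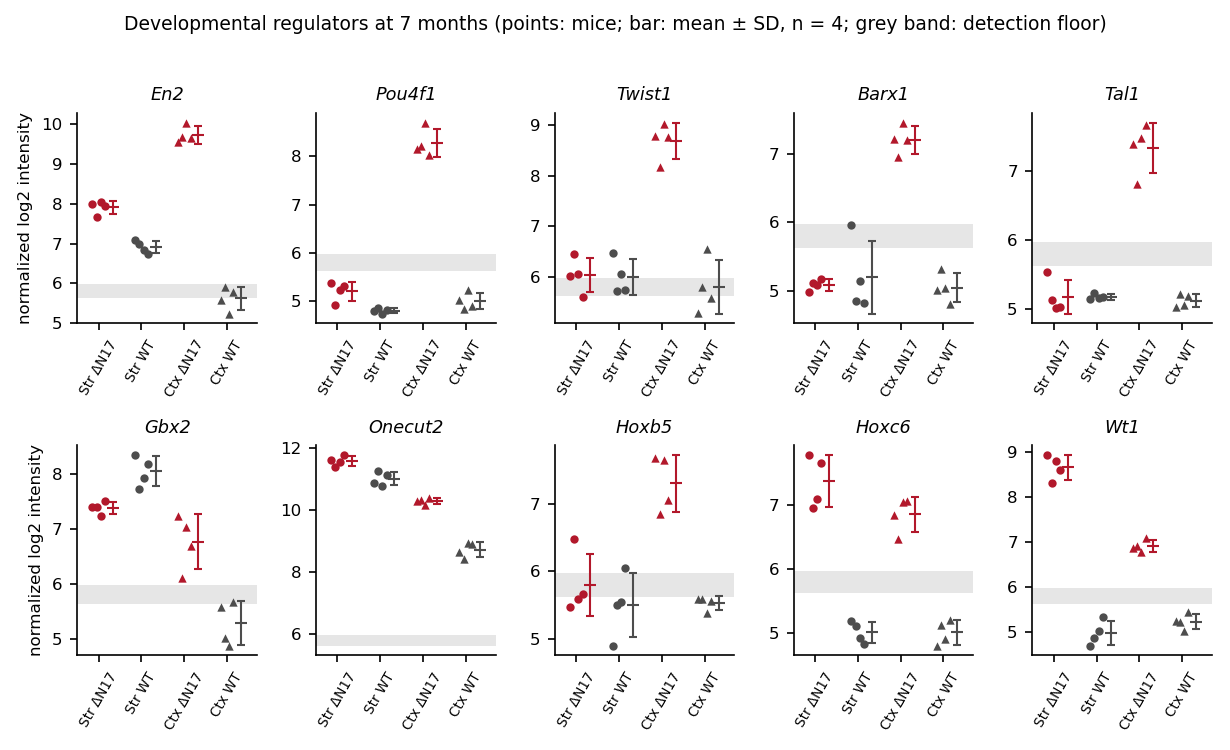
Normalized log2 intensity of 10 developmental regulators at 7 months in striatum (Str, circles) and cortex (Ctx, triangles), BACHD-ΔN17 (ΔN17, red) left of wild-type (WT, grey), with a point per mouse, the mean ± SD (n = 4) and the detection floor of 5.62 to 5.97 as a grey band. En2, Pou4f1, Twist1, Barx1 and Tal1 are highest in BACHD-ΔN17 cortex, and Wt1 in BACHD-ΔN17 striatum.

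The promoters of genes that rose from below detection in cortex and of glial genes that rose in striatum are shown for 4 of them, chosen after their values were seen, to let their base composition be read beside the levels above. The letters are the 250 bases before the RefSeq start of each gene (GRCm38.p6), with CG dinucleotides in capitals.
Pou4f1, chr14:104468000-104468249, minus strand: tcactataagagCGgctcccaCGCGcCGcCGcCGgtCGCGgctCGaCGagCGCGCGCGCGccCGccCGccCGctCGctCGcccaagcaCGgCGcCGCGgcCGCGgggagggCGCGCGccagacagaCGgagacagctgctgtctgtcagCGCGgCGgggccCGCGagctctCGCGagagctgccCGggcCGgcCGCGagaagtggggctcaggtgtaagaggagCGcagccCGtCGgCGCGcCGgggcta
Barx1, chr13:48662786-48663035, plus strand: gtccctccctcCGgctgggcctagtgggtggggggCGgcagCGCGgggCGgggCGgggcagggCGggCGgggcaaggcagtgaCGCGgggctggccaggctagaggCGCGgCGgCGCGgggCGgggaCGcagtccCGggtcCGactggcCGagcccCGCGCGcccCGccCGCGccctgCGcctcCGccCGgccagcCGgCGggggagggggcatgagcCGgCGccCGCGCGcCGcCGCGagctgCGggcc
Gfap, chr11:102897201-102897450, minus strand: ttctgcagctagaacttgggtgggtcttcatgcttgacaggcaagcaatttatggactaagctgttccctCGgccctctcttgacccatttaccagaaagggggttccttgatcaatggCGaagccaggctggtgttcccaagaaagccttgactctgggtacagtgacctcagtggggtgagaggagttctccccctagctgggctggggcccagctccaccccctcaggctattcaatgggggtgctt
Lyz2, chr10:117282273-117282522, minus strand: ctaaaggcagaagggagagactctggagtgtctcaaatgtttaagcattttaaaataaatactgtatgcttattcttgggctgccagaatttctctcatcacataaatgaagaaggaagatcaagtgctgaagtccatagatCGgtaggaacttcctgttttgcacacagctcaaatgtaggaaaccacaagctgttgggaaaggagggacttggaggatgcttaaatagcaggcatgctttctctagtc

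The motif CG occurs 47 times in the Pou4f1 window and 40 times in that of Barx1, against 2 in that of Gfap and 1 in that of Lyz2. The same letters read on either strand. Over the 8595 tested genes with a promoter in the table, the median was 15, 2.14% held at least 40 and 7.06% at most 2. The 4 windows do not stand for their groups. Tal1, also detected in BACHD-ΔN17 cortices alone, held 6, and Twist1 held 18. Among called genes that were lower with the larger change in cortex, the 11 of 15 with a promoter in the table ranged from 4 to 47. Among those that were higher with the larger change in striatum, the 47 of 66 with one ranged from 1 to 41. A comparison of these classes by the count is void, because under 80% of either had a promoter in the table.

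Genes that fell in cortex more than in striatum made up another share of the higher within-mouse differences. Sytl1, a regulator of vesicle trafficking, was at 6.2, 5.33, 5.37 and 6.06 in BACHD-ΔN17 cortices and at 7.76, 7.94, 7.33 and 7.84 in wild-type cortices, and it was not detected in striatum. It fell by 1.98 in cortex, and the difference between regions was 1.84 ± 0.32 (adjusted p = 0.00087, limma). Slc23a3, a membrane transporter, fell by 1.69 in cortex and Mylk3, a myosin kinase of heart, by 1.42. The call between regions was lost under 8 of 26 alternatives for Slc23a3 and under 6 of 25 for Mylk3. Mylk3 was not detected in BACHD-ΔN17 cortices, at least 2.29-fold lower than in wild-type cortices. Dynlrb2, a dynein light chain of ciliated cells, was not detected in BACHD-ΔN17 cortices, at least 1.42-fold lower than in wild-type cortices. It was the 1 called gene of 8 on the list of choroid plexus and ependymal genes, a call lost under 13 of 26 alternatives.

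Nrn1, which encodes neuritin, a neurite growth protein that excitatory neurons make in response to activity, changed in opposite directions. It was at 11.09, 10.27, 11.01 and 10.94 in BACHD-ΔN17 striata and at 8.96, 9.59, 7.72 and 8.01 in wild-type striata. In cortex it was at 13.33, 13.35, 13.18 and 13.12 in BACHD-ΔN17 mice and at 13.68, 13.83, 13.69 and 13.76 in wild-type mice. It rose by 2.26 in striatum (adjusted p = 0.00388) and fell by 0.49 in cortex (adjusted p = 0.000556), and the difference between regions was 2.75 ± 0.50 (adjusted p = 0.00168, limma). The 2 wild-type striata with most Nrn1 were those with most Slc17a7, and the call held under all 26 alternatives, including the one without them.

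Cpne4, a calcium-binding copine, had the opposite signs. Its within-mouse differences, -2.06, -2.02, -2.0 and -2.0 in BACHD-ΔN17 mice and -0.84, -1.14, -0.92 and -0.83 in wild-type mice, did not overlap. It fell by 0.65 in striatum and rose by 0.44 in cortex, with a difference of -1.09 ± 0.14 (adjusted p = 1.20e-05, limma). Coro1a, an actin regulator of immune cells, rose by 0.37 in striatum and fell by 0.28 in cortex, with 0.66 ± 0.13 (adjusted p = 0.00363), but 3 further probes were not called. These 4 genes, Gbx2, Nrn1, Cpne4 and Coro1a, were all that passed the test in both regions with opposite signs.

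Of 27 cortical excitatory neuron genes, Nrn1 was the 1 higher and Nptx1, a secreted pentraxin of synapses, the 1 lower. Nptx1 was at 5.09, 6.26, 5.33 and 5.80 in BACHD-ΔN17 striata and at 6.41, 6.95, 6.63 and 7.10 in wild-type striata, and its difference between regions was -1.26 ± 0.32 (adjusted p = 0.0314, limma). Cortical markers were also lower in BACHD-ΔN17 striata, as given above, and the call was lost under 13 of 26 alternatives, among them the one without the 3 mice with most Slc17a7. Their part in the result was not tested.

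A further 103 features were called in both regions with the same sign, 29 of them higher, and 7 of these were also called between regions. Those not called between regions included Fst, the activin-binding protein follistatin, which fell by 1.87 in striatum and 1.47 in cortex, and Inhba, an activin subunit, which fell by 1.66 and 1.10. Their differences between regions were -0.40 ± 0.26 (adjusted p = 0.61) and -0.56 ± 0.20 (adjusted p = 0.215, limma). Cbx8, a Polycomb subunit, rose by 0.83 in striatum and 0.71 in cortex, and Cd82, a tetraspanin, by 0.72 and 0.68. Their differences between regions were 0.13 ± 0.21 and 0.04 ± 0.18. Bdnf, the neurotrophin that cortical neurons supply to striatum, fell by 0.80 in cortex (adjusted p = 0.0203). Its difference between regions was 0.15 ± 0.44 (adjusted p = 0.946), with striatal levels near the floor.

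Genes were also sorted by where wild-type mice of 2 and 11 months express them. The 7-month values come from other mice, but all mice share the normalization and the estimate of the spread. A gene counted as enriched when the wild-type regions differed by at least 1 log2 unit with an adjusted p under 0.05 (limma). Of 528 striatum-enriched genes, 66 (12.5%) had a lower within-mouse difference in BACHD-ΔN17 mice at 7 months and 6 a higher one. Of 602 cortex-enriched genes, 34 (5.65%) had a higher one and 7 a lower one. Among the other 10443 genes, 56 were higher and 52 lower. The median genotype difference was -0.25 for the striatum-enriched genes, 0.16 for the cortex-enriched genes and -0.001 for the others. The striatal and cortical shares were unlike, at -0.27 in striatum and 0.04 in cortex for striatum-enriched genes, and at -0.002 in striatum and -0.16 in cortex for cortex-enriched genes. Of the 528 striatum-enriched genes 181 fell and 23 rose in striatum, and 14 fell and 11 rose in cortex. Of the 602 cortex-enriched genes 35 fell and 39 rose in striatum, and 44 fell and 6 rose in cortex. Among the other 10443 genes 591 fell and 514 rose in striatum, and 78 fell and 37 rose in cortex. Without the 3 mice with most Slc17a7 the counts were 33 striatum-enriched genes lower and 8 cortex-enriched genes higher, and without BACHD-ΔN17 mouse 3 they were 39 and 12.

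Lists of other cell types and of stress held at most 1 call each, where 1.91% of all features were called. Of 12 oligodendrocyte precursor genes 1 was called, Matn4, a matrix protein, by 0.72 ± 0.16 (adjusted p = 0.0133), its 2 other probes were not called, and its call was lost under 9 of 26 alternatives. Of 19 neuropeptide genes the 1 called was Pdyn. None was called of 16 oligodendrocyte genes, 17 endothelial and mural genes, 37 chaperones, 24 cholesterol synthesis genes, 7 GABA receptor subunits and 5 blood genes by limma, and their medians lay between -0.12 and 0.08. An unadjusted p under 0.05 was reached by 2, 2, 2, 2, 1 and 0 of them, in the same order of lists. Over all features, 0 differed between sexes in this contrast by limma (258 at an unadjusted p under 0.05), with 2 mice per genotype and sex.

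The other ages place these differences in time. At 2 months 0 features were called for the same contrast by limma (331 at an unadjusted p under 0.05), and at 11 months 692 were. The 96 features that were higher at 7 months had a median difference of 0.11 at 2 months, 1.05 at 7 months and 0.91 at 11 months. The 125 that were lower had medians of -0.09, -0.91 and -0.94. At 11 months 75 of the 96 and 97 of the 125 were called in the same direction. The 7-month values chose these features, so their level at 7 months is a description.

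The change between ages was tested in the same fit. Between 2 and 7 months it was called for 26 features (0.225%), 9 of them rising, and all 26 were among the 221. Ccl4 had a difference of -0.08 ± 0.35 at 2 months and 2.43 ± 0.35 at 11 months, and its change between 2 and 7 months was 3.86 ± 0.50 (adjusted p = 5.11e-05, limma). Lyz2 had 0.54 ± 0.43 and 3.06 ± 0.43 at those ages, and a change of 3.23 ± 0.61 (adjusted p = 0.00841). Neither was called at 2 months. For both the value at 11 months was below that at 7 months, and that later change was not called (adjusted p = 0.608 and 0.826).

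For Gfap the difference was 0.18 ± 0.34 at 2 months and 2.81 ± 0.34 at 11 months, with a change of 3.30 ± 0.48 between 2 and 7 months (adjusted p = 0.000326, limma). Drd2 had 0.02 ± 0.21 at 2 months and -0.74 ± 0.21 at 11 months, and a change of -1.58 ± 0.30 (adjusted p = 0.00814). En2 had 0.07 ± 0.26 and -4.02 ± 0.26, and a change of -3.18 ± 0.36 (adjusted p = 9.84e-06). Among the developmental factors, Pou4f1, Twist1, Barx1, Tal1, Gbx2 and Onecut2 also changed between 2 and 7 months, by -2.97, -2.66, -2.23, -2.33, -2.0 and -1.72. Onecut2 started from 0.71 ± 0.17 at 2 months, which was not called, and was at -1.01 at 7 months. The others lay between -0.19 and 0.12 at 2 months. Wt1 did not pass this test, with 0.87 ± 0.26 at 2 months, 0.70 ± 0.26 at 11 months and a change of 1.14 ± 0.37 (adjusted p = 0.416). Cd74 did not either, with 0.14 ± 0.54 at 2 months and 0.79 ± 0.54 at 11 months.

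Between 7 and 11 months 3 features were called (0.0259%), none of them among the 221, by limma (813 at an unadjusted p under 0.05). They were Hoxc6, 6030458C11Rik and an unnamed probe, and all fell. Hoxc6 had a difference between regions of 0.51 at 7 months and -1.49 ± 0.27 at 11 months, a change of -2.01 ± 0.38 (adjusted p = 0.0401). Barx1 and Pou4f1 continued in the same direction, to -4.0 ± 0.27 and -4.29 ± 0.24 at 11 months, but their changes after 7 months were not called (adjusted p = 0.334 and 0.422).

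**Figure D5:**
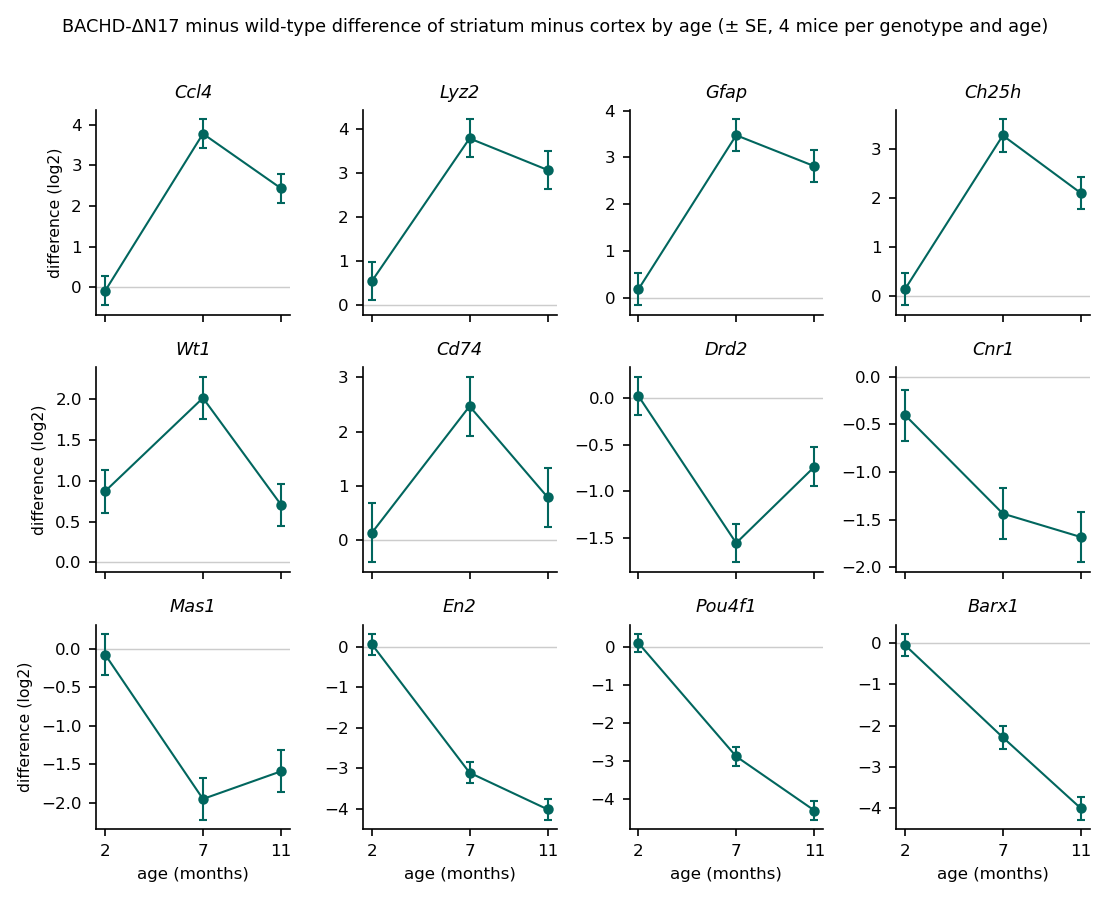
Genotype difference of the striatum minus cortex value, BACHD-ΔN17 minus wild-type (log2, ± SE, 4 mice per genotype and age), at 2, 7 and 11 months for 12 genes. Glial genes such as Ccl4 and Gfap are near 0 at 2 months and highest at 7 months, and En2, Pou4f1 and Barx1 are near 0 at 2 months and lowest at 11 months.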

How the data were processed

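Per the labels' protocols, total RNA was purified from Trizol lysates, and 100 ng was amplified and biotin-labelled for Illumina MouseRef-8 arrays. The authors deposited, per probe and array, a bead intensity on a linear scale without normalization and a detection p-value. A second deposited table holds log2 values, which equalled the quantile-normalized log2 intensities without background correction. The scanner software is not given in the sources used here.

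Intensities of all 48 arrays were background-corrected from the detection p-values (normexp, offset 16) and quantile-normalized as in neqc of limma 3.58.1 (R 4.3.3). Of 25697 probes, 23978 had 1 gene symbol, 0 several and 1719 none. The probe with the highest mean was kept for each of 16593 genes, which with unnamed probes gave 18312 features, and 11573 had a detection p under 0.05 on at least 4 arrays of 1 region. Striatum minus cortex within each of 24 mice was fitted by limma (eBayes with a trend) with 6 group means and sex. The same model was fitted to each region. The pairing comes from the mouse names in the labels. P-values measure the spread between mice. Array number limits the precision. Where all 4 arrays of a group missed detection, the text gives a bound ("at least"): the mean of the detected group over the mean of the floors, or over the undetected values where these were higher.

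The members, lists and tests were chosen with earlier results of these data known. Named genes are the 15 largest called differences each way, up to 6 called members per list, a set always taken that included Htt, Drd2, Gfap and Lyz2, and leading genes shared by the regions, carried by cortex or opposed between regions. Alternatives covered normalization, background, detection filter, variance model, sex, array order, array weights and each mouse left out. The script was tested on simulated data.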

Additional observations from a re-analysis of the deposited data

Results flagged for a closer look

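Differences between striatum and cortex in the effect of the genotype at 7 months passed the within-mouse test for 221 features, as described above. That effect itself differed between 7 and 2 months for 26 of them. The named ones with a gain in the within-mouse difference were Ccl4 (3.86), Gfap (3.30), Lyz2 (3.23), Ch25h (3.14), Lyz1 (2.95), Ccl3 (2.30), Ctse (1.83), S100a6 (1.35) and B2m (0.84). Those with a loss included En2 (-3.18), Pou4f1 (-2.97), Twist1 (-2.66), Tal1 (-2.33), Barx1 (-2.23), Cyp2a5 (-2.07), Gbx2 (-2.0), Mas1 (-1.87), Myo3b (-1.85), Onecut2 (-1.72), Drd2 (-1.58) and Cpne4 (-1.04). A loss was also called for Agtr1a (-1.50), Ccm2 (-1.19), Rem2 (-1.06), Gsk3b (-0.95) and an unnamed probe (-1.83). Between 11 and 7 months the effect differed for Hoxc6 (-2.01), 6030458C11Rik (-3.05) and an unnamed probe (-3.10).

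A mouse stood far from the other three of its group in 13 of 214 groups of named genes. Chance gives about 1 in 20 groups. Among BACHD-ΔN17 mice the within-mouse differences concerned were those of mouse 2 for Nrn1 (-3.08) and Wnt8b (0.11), of mouse 3 for Serpina3n (0.40), and of mouse 4 for Ccl4 (3.63) and Pdyn (2.11). Wild-type mouse 1, whose striatal array was the dimmest of the 16, stood apart for Ccl3 (0.76), Homer1 (0.54), Pde10a (4.78), St8sia2 (1.43) and the unnamed probe ILMN_2690603 (2.29). Wild-type mouse 2 stood apart for Ddit4l (-1.04) and Hspa4l (0.88), and wild-type mouse 3 for Cnr1 (0.48).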

How the results depend on the processing

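None of the named genes called at 7 months reversed its sign under the 26 alternatives, and 14 of 75 kept their call under all that could be run. Calls lost without the 3 mice with most striatal Slc17a7 also included those of C4b, Cdhr1, Coro1a, Hspb3, Slc18a3, Sytl1 and Wnt8b. The count of 221 was 116 with scale normalization (which moved the median of all features to -0.08), 140 and 145 with the 7-month arrays normalized or the 7-month mice fitted alone, and 406 with array weights. Without the 3 mice with most striatal Slc17a7 it was 109, and with array numbers 1 to 32 only it was 29 (16 higher, 13 lower), both chosen after seeing the data. Leaving out each mouse gave 97 (without BACHD-ΔN17 mouse 3) to 204. In a fit without the replicate block, which ignores the pairing of a mouse's regions, 174 were called, 162 of them shared, and 1 of the 3 between 7 and 11 months. The striatal count of 1383 was 698 (scale), 2453 (weights), 325 (1 to 32) and 824 to 1329 with a mouse left out. The cortical count of 190 was 63 (scale), 295 (sets of array numbers as a block), 555 (weights), 70 (Slc17a7), 14 (1 to 32) and 132 to 173 with a mouse left out. The 26 between 2 and 7 months were 54 without background correction or with the authors' values, 16 with detection on 8 arrays, 49 (sets), 53 (weights), 6 (1 to 32) and 19 to 26 with a mouse left out. The 3 between 7 and 11 months were 5 without background correction, with the authors' values or with offset 50, 7 without a trend, 1 with detection on 8 arrays, with eights of array numbers as a block or without numbers 1 to 8, and 1 to 4 with a mouse left out. The 66 striatum-enriched genes lower were 101 (weights), 33 (Slc17a7), 4 (1 to 32), 34 at a class threshold of 2 (24.3% of 140 genes, against 12.5% of 528) and 39 to 60 with a mouse left out. The 34 cortex-enriched genes higher were 16 (scale), 22 (7 months alone, normalized or fitted), 56 (weights), 8 (Slc17a7), 5 (1 to 32), 11 (threshold of 2; 6.88% of 160 genes, against 5.65% of 602) and 12 to 27 with a mouse left out. The causes were not tested. What the internal sample numbers stand for is not given in the sources used here, and 4 mice per group and signal near the detection floor limit what these arrays resolve.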
